A study of Mus musculus with 4 samples.

Results

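The genes described here carry out glycolysis, glucose uptake, lactate export and the response to low oxygen. They were chosen by symbol: of 36 named genes, 33 had at least 1 probe set that the platform annotation assigns to that gene alone, with 64 probe sets in all of the 22690 on the array. Hk3, Gpi1 and Eno1 had none and were not analysed here. Of the 64 probe sets, 50 passed the filter on dim signals (a mean log2 signal of at least 6.85 over the arrays) and were tested, 11 lay below it, and 3 were Affymetrix control probe sets of Gapdh, which were described without a test. The brightest probe set stood for its gene, which left 29 measured genes of 8413 on the array. Members that passed the filter are not all members, and their counts are given only as descriptions.

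Expression was measured on 4 Affymetrix arrays, 1 per sample, in Langerhans cells, which take up and present antigen in the epidermis, sorted from mice to a purity of 95%. TCDD (2,3,7,8-tetrachlorodibenzo-p-dioxin) is a dioxin that activates the aryl hydrocarbon receptor, AhR. Control 1 came from mice given DMSO and olive oil, and TCDD 1 from mice given 10 µg TCDD in oil. Neither names a skin site. Control 2 and TCDD 2 (10 µg TCDD in DMSO and oil) came from back skin, and the title and description of control 2 name a control while its treatment protocol names TCDD. The series design gives injection into the peritoneum for all mice, and all cells were isolated after 24 h. The labels give no strain, sex or age and do not say how many animals were pooled, so errors cover only how far these samples lie apart, part of which may be technical. Preparation here means only the labelled site, back skin or none named. The labels date the controls to different experiments and give no experiment for the TCDD arrays, so each TCDD array is set against the control of its own site label, which may not be from its own experiment.

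Glycolysis breaks glucose down to pyruvate in the cytosol. Glucose enters through the transporters encoded by Slc2a genes, and pyruvate is either reduced to lactate by lactate dehydrogenase or passed to mitochondria through the pyruvate dehydrogenase complex. When oxygen is low, the prolyl hydroxylases of the Egln family and the ubiquitin ligase subunit Vhl no longer degrade Hif1a, which then pairs with Arnt and switches on glycolytic and other hypoxia genes. Arnt is also the partner of AhR, and dendritic cells are known to raise glycolysis when they are activated.

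Signals were linear MAS5 intensities, and the median signal lay between 164.9 and 188.15 on the 4 arrays. All 12 listed Langerhans cell markers passed the filter, at unequal levels between arrays. Epcam, an adhesion molecule, read 7541 to 10032, and Cd207, the lectin langerin, 2119.9 to 7211. H2-Eb1, an MHC class II chain, read 1404 in control 1 and 3972 to 7042 on the other arrays. Of the 12 markers, 4 were lowest on control 1, beside 29.2% of all genes. Cdh1 (E-cadherin) was dim at 137.8 to 206.6, and Cx3cr1 and Itgax lay below the signal of the filter, 115.4, on some arrays (lowest values 94.3 and 115.3). The summed signal of 10 T cell markers with a probe set was 1724 and 3295 in controls 1 and 2 and 2430 and 1769 in TCDD 1 and 2. The brightest of these markers, Zap70, read 875.4 and 759.4 in controls 1 and 2 and 856.7 and 947.6 in TCDD 1 and 2. It therefore narrows the spread of the sums. The summed signal of 11 keratinocyte markers was 1766 in control 1, 1506 in control 2, 1417 in TCDD 1 and 2143 in TCDD 2, and only 5 of these 11 passed the filter. Of 8 tested T cell markers, 6 had a ratio of TCDD to control above 1 where no site is named, but below 1 in back skin. The share of all tested probe sets with this pattern was 33.5%. The sum of 10 skeletal muscle markers was 814.5 in control 1 and 947.8 to 1318 on the others, but only 4 of them were tested. Ckm, muscle creatine kinase, was lowest on control 1 (49.3, below the signal of the filter, against 130.7 to 274.3). Mb and Mylpf were also lowest there, but close to TCDD 1 (106.4 against 107.6 and 174.8 against 180.1). Atp2a1 was highest on control 1 (254.2 against 96.8 to 191.0). The sum also holds signals too dim to be tested, such as Acta1 (14.0 in control 1, 170.9 to 222.7 on the others). The sum of 7 neuron markers was also lowest on control 1 (231.5 against 282.9 to 483.8). Only 1 of them, Syn1, passed the filter, and the rest of this sum is made of signals too dim to be tested. Sums ranged from 1773 to 2402 for melanocytes, 1158 to 1488 for fibroblasts and endothelium, 980.1 to 1261 for mast cells and granulocytes, and 833.4 to 1006 for red cells and platelets. The part of these cells in the results was not tested. In bulk RNA, fewer cells of a type and less RNA per cell cannot be told apart.

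Gapdh, the glycolytic dehydrogenase often used as a reference gene, was read by probe sets placed along its transcript, and control 1 differed by position. Its control probe sets cover the 3′ end, the middle and the 5′ end of the transcript. At the 3′ end, controls 1 and 2 read 17050 and 23011 and TCDD 1 and 2 read 16671 and 22989, so the log2 ratio of TCDD to control was -0.03 where no site is named and -0.0014 in back skin. At the 5′ end, control 1 read 159.6, against 1745 in TCDD 1, 1927 in control 2 and 1444 in TCDD 2. The same transcript thus gave a log2 ratio of 3.45 with no site named, and of -0.42 in back skin. In the middle, control 1 read 1679 and the other arrays 8419 to 10048. The Gapdh signal at the 3′ end over that at the 5′ end was 106.8 in control 1 and 9.55, 11.9 and 15.9 in TCDD 1, control 2 and TCDD 2. For beta-actin, a cytoskeletal gene with the same kind of probe sets, it was 49.7 in control 1 and 3.48, 4.64 and 7.71 in the others. Every result below that rests on a low value of control 1 has this difference beside it, and its part in genes other than Gapdh was not tested.

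**Figure D1:**
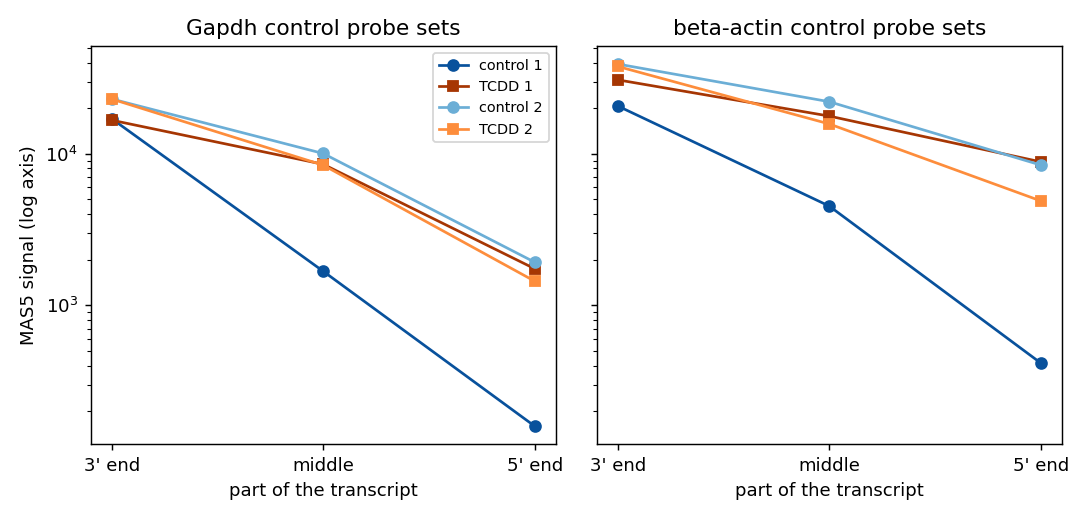
MAS5 signal (log axis) of the control probe sets for Gapdh (left) and beta-actin (right) at the 3′ end, the middle and the 5′ end of the transcript, with 1 line per array. For Gapdh, control 1 lies with TCDD 1 at the 3′ end (17050 and 16671) and far below all other arrays at the 5′ end (159.6 against 1444 to 1927).

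TCDD was compared with control over both preparations. None of the 50 member probe sets passed the test (limma, all adjusted p = 0.9999), beside 0% of 13576 probe sets tested. Pdk1, Tpi1, Bnip3, Slc16a3 and Aldoc had the highest log2 differences of the measured genes (0.90 to 1.72), and Ddit4 and Ldhb the lowest (-0.55 and -0.34). At an unadjusted p under 0.05, 6 of 50 member probe sets were higher after TCDD (limma), against 1.47% of all probe sets in either direction. They were the 3 of Tpi1 and 1 each of Pdk1, Pfkl and Aldoc. The median log2 difference of the 29 measured genes was 0.16, and that of all 8413 genes was -0.03.

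Both preparations were also compared on their own, with 1 array per group and therefore no test. Ratios of TCDD to control from here on are log2 ratios. Of the 50 member probe sets, 18 were higher after TCDD in both preparations, beside 19.3% of all probe sets, and 4 were lower in both, beside 21.3%. Another 21 were higher with no site named but lower after TCDD on the back skin arrays (33.5% of all), and 7 went the other way (25.8% of all). The median log2 ratio of TCDD to control over the 29 genes was 0.28 with no site named, with 23 genes above 0, but 0.04 in back skin, with 16 above 0. Over all genes these medians were -0.01 and -0.05. Both TCDD arrays exceeded both controls in 12 member probe sets, beside 12.4% of all probe sets: 2 each of Tpi1 and Pfkl and 1 each of Hk1, Hk2, Pgk1, Pdk1, Slc16a3, Egln1, P4ha1 and Car9. Both lay below both controls in 2, of Ddit4 and Ldhb, beside 13.2%.

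**Figure D2:**
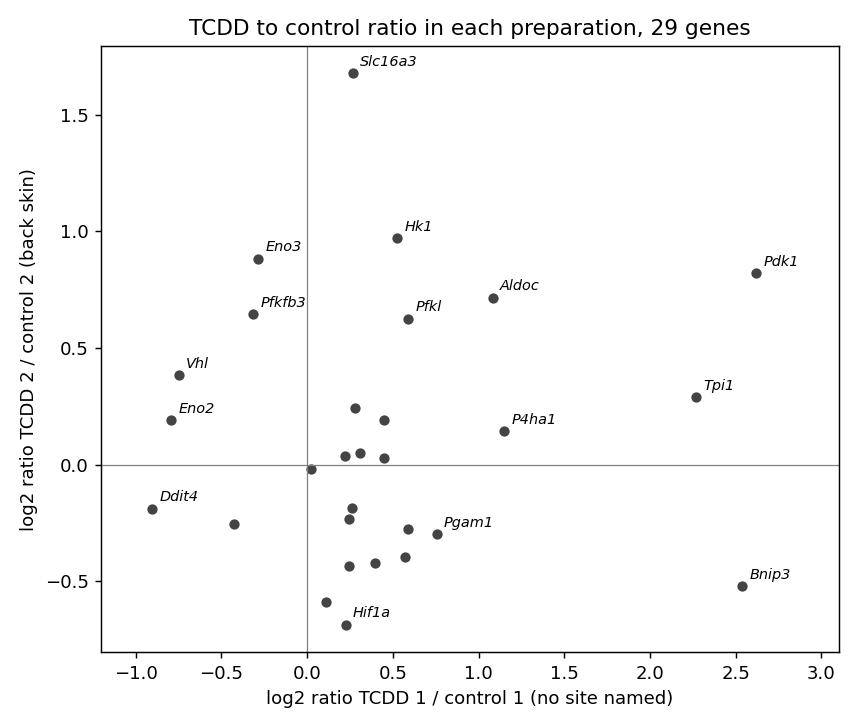
Log2 ratio of TCDD to control in the preparation with no site named (x axis, TCDD 1 over control 1) and in back skin (y axis, TCDD 2 over control 2), 1 point per measured gene. Pdk1, Tpi1 and Bnip3 lie far to the right (2.62, 2.27 and 2.54), while in back skin they read 0.82, 0.29 and -0.52.

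Among the transporters, Slc2a1, the main glucose carrier of most cells, read 2281 and 2953 in controls 1 and 2 and 2772 and 3497 in TCDD 1 and 2. The groups overlapped, and the log2 difference was 0.26 ± 0.33 (SE, n = 2 per group, as for all differences below). Its other tested probe sets were lowest on control 1 as well, at 344.0 and 500.3. Slc16a3, which exports lactate, had signals of 154.1 and 50.3 in controls 1 and 2, against 185.4 and 160.7 in TCDD 1 and 2, a log2 difference of 0.97 ± 0.52. Control 2 was the low array, at a signal below that of the filter, so the back skin ratio of 1.68 rests on a dim value, against 0.27 with no site named. The difference was 0.16 without control 2, 1.78 without control 1 and 0.64 with an offset of 50 added to all signals. Slc2a3, another glucose carrier, differed by -0.0002 ± 0.40, with signals of 157.2 to 183.5. Slc16a1, a related monocarboxylate carrier, lay below the filter at 10.9 to 28.7 and was not tested.

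Upper glycolysis held 5 of the 12 measured genes that were higher after TCDD in both preparations. Of its 9 measured genes, 5 were higher in both preparations and 0 lower in both, beside 17.9% and 22.8% of all genes. Hk1, a hexokinase that traps glucose in the cell, had signals of 499.7 and 450.9 in controls 1 and 2, against 719.1 and 883.4 in TCDD 1 and 2. The groups did not overlap, control 1 was not the lowest array, and the log2 difference was 0.75 ± 0.35 (limma, adjusted p = 0.9999). It stayed between 0.60 and 0.90 whichever array was left out. Hk2, the inducible hexokinase, was nearly level, at 1306 in control 1, 1472 in control 2, 1522 in TCDD 1 and 1511 in TCDD 2 (0.13 ± 0.34).

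Pfkl, the liver-type subunit of phosphofructokinase, which commits sugar to glycolysis, had probe sets that agreed in direction and differed in size. The brighter had signals of 538.6 and 713.4 in controls 1 and 2, against 811.3 and 1101 in TCDD 1 and 2 (0.61 ± 0.34). The other had signals of 243.7 and 507.8 in controls 1 and 2, against 628.9 and 1039 in TCDD 1 and 2 (1.20 ± 0.34). Where no site is named and in back skin, the ratios were 0.59 and 0.63 for the brighter probe set. For the other they were 1.37 and 1.03. The remaining phosphofructokinase subunits showed little: Pfkm, the muscle type, differed by 0.04 ± 0.34 at signals of 418.0 to 501.6, and Pfkp, the platelet type, by 0.003 ± 0.35 at 735.3 to 995.5. Pfkp turned to -0.01 after quantile normalization and to -0.002 after median centring. Pfkfb3, which makes the activator of phosphofructokinase, had signals of 3545 and 1995 in controls 1 and 2, against 2847 and 3122 in TCDD 1 and 2 (0.16 ± 0.37).

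Tpi1, triosephosphate isomerase, read 1821 in control 1 and 8768, 8280 and 10118 in TCDD 1, control 2 and TCDD 2. Control 1 stood apart from the 3 other arrays, which spanned a narrow range. The log2 difference was 1.28 ± 0.46, made up of 2.27 where no site is named and 0.29 in back skin. The other probe sets repeated this: they read 1468 and 991.2 in control 1, and 7699 to 9262 and 3820 to 4957 in the others. Aldolase splits the 6-carbon sugar into triose phosphates. Aldoa, its main form, had signals of 5780 and 10443 in controls 1 and 2, against 8597 and 7944 in TCDD 1 and 2 (0.09 ± 0.34), and all 4 of its probe sets were lowest on control 1. Aldoc, the brain-type aldolase, had signals of 168.5 and 365.3 in controls 1 and 2, against 356.9 and 599.8 in TCDD 1 and 2 (0.90 ± 0.34), with ratios of 1.08 and 0.72. TCDD 1 lay just below control 2, so the groups overlapped.

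In lower glycolysis the differences were smaller, from -0.30 to 0.30. Pgk1, phosphoglycerate kinase, had signals of 17030 and 24222 in controls 1 and 2, against 21059 and 25030 in TCDD 1 and 2 by its brightest probe set (0.18 ± 0.27). Pgam1, phosphoglycerate mutase, had signals of 979.4 and 1733 in controls 1 and 2, against 1654 and 1408 in TCDD 1 and 2 (0.23 ± 0.38), so the ratios ran opposite ways, 0.76 and -0.30. Eno3 and Eno2, the muscle and neuronal enolases, differed by 0.30 ± 0.39 (signals of 737.3 to 1359) and -0.30 ± 0.45 (108.6 to 188.2), each with opposite signs in the preparations. Pkm, pyruvate kinase, had signals of 1703 and 1463 in controls 1 and 2, against 2015 and 1083 in TCDD 1 and 2 (-0.10 ± 0.36). By the brightest probe set the groups overlapped for all of these genes. Another probe set of Pgk1 did not overlap, at 5350.2 and 4419.5 in controls 1 and 2 and 5388.5 and 7505.8 in TCDD 1 and 2 (0.39 ± 0.34).

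At the exit of the pathway, Pdk1 stood out. It encodes the kinase that shuts the pyruvate dehydrogenase complex and is a known target of Hif1a. It read 114.8 in control 1, 542.3 in control 2, 706.4 in TCDD 1 and 957.2 in TCDD 2. Both TCDD arrays lay above both controls, and the log2 difference was 1.72 ± 0.45 (limma, adjusted p = 0.9999), with ratios of 2.62 and 0.82. The value of control 1 lay just below the signal of the filter, 115.4, so the ratio of 2.62 rests on a dim value. With an offset of 50 added to all signals the difference was 1.48. The second probe set of Pdk1 read 68.6 in control 1 and 226.8 to 337.9 in the others, so there the back skin ratio was -0.04. Ldha, the lactate dehydrogenase subunit of glycolytic cells, had signals of 2038 and 3319 in controls 1 and 2, against 3067 and 2744 in TCDD 1 and 2 (0.16 ± 0.36). Ldhb, the other subunit, had signals of 516.6 and 623.1 in controls 1 and 2, against 384.1 and 522.7 in TCDD 1 and 2 (-0.34 ± 0.34). Pdha1, a subunit of the pyruvate dehydrogenase complex, differed by -0.24 ± 0.36 at signals of 570.2 to 858.2.

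Of the oxygen sensors, Hif1a had signals of 2694 and 3278 in controls 1 and 2, against 3149 and 2037 in TCDD 1 and 2 by its brightest probe set, a log2 difference of -0.23 ± 0.36. Its other tested probe sets differed by -0.09 and 0.15. A further probe set lay below the filter, at 33.9 in control 1 and 97.4 to 139.7 on the other arrays. The mean of all its probe sets, this dim probe set included, gave 0.23, so the direction depended on the probe set. Egln1 is a prolyl hydroxylase that marks Hif1a for degradation. By its brightest probe set it read 951.2 and 1200 in controls 1 and 2, against 1297 and 1369 in TCDD 1 and 2. The log2 difference was 0.32 ± 0.34, and this probe set was higher after TCDD in both preparations. The other tested probe set read 263.5 and 392.1 in controls 1 and 2, against 414.6 and 297.6 in TCDD 1 and 2. Its ratio was 0.65 for TCDD 1 over control 1 but -0.40 for TCDD 2 over control 2 (0.13 ± 0.38). Vhl, which targets hydroxylated Hif1a, differed by -0.18 ± 0.42, at signals of 144.3 to 256.5. Egln3, a further hydroxylase, lay below the filter at 89.2 to 131.3 by its brightest probe set.

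The hypoxia targets went separate ways. Bnip3, a mitophagy receptor, read 593.8 in control 1 and 3452, 2897 and 2019 in TCDD 1, control 2 and TCDD 2. The log2 difference of 1.01 ± 0.62 joined a ratio of 2.54 with no site named to one of -0.52 in back skin. P4ha1, a subunit of collagen prolyl hydroxylase, had signals of 118.2 and 165.9 in controls 1 and 2, against 262.1 and 183.1 in TCDD 1 and 2 (0.65 ± 0.43). Its other probe set gave -0.12. Vegfa, the vascular growth factor, differed by -0.01 ± 0.36 by its brightest probe set (343.9 and 559.3 in the controls, 452.6 and 417.3 after TCDD) and by 0.56 ± 0.42 by the other. Ddit4, an inhibitor of mTOR signalling induced by stress and hypoxia, had the lowest log2 difference of all measured members: 3174 and 3239 in the controls, 1697 and 2843 after TCDD (-0.55 ± 0.35). The controls were alike, the low array was TCDD 1, and the difference lay between -0.92 and -0.17 with 1 array left out. Car9, a carbonic anhydrase and sensitive hypoxia marker, stayed at 145.7 to 199.1 (0.24 ± 0.41), and Adm, adrenomedullin, lay below the filter at 36.0 to 99.1.

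**Figure D3:**
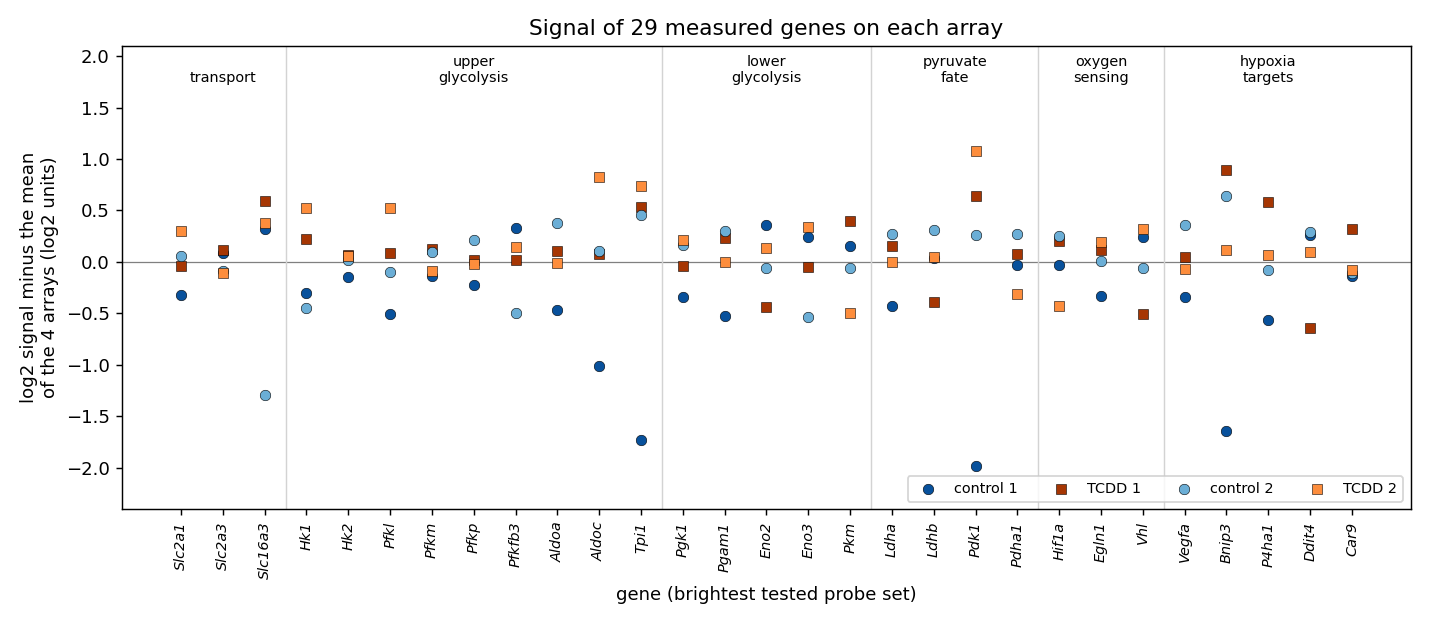
Log2 signal minus the mean of the 4 arrays (y axis) for the 29 measured genes, ordered by role, with 1 point per array (circles controls, squares TCDD). Control 1 lies lowest for 17 of the 29 genes, far below the rest for Tpi1, Pdk1, Bnip3 and Aldoc, while control 2 is the low array for Slc16a3.

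Control 1 was the lowest array in 32 of the 50 member probe sets, beside 31.7% of all 13576 probe sets. TCDD 1 was lowest in 7 (19.9% of all), control 2 in 6 (23.2%) and TCDD 2 in 5 (25.2%). Over genes it was lowest in 17 of 29, beside 29.2% of all genes. Control 1 lay at least 2-fold below each other array in 9 member probe sets, beside 3.03% of all: the 3 of Tpi1, both of Pdk1, and 1 each of Bnip3, Aldoc, Pfkl and Vegfa. Over the 29 genes the median log2 ratio was 0.31 for control 2 over control 1 and 0.21 for TCDD 2 over control 1, but 0.03 for TCDD 1 over control 2 and -0.01 for TCDD 2 over TCDD 1. These ratios share arrays and are given as descriptions.

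Leaving out a control changed the calls. Without control 2, the array with conflicting labels, 8 of 50 member probe sets passed the test (limma), all higher after TCDD, beside 2.1% of all probe sets. They were the 3 of Tpi1, both of Pdk1, and 1 each of Bnip3, Aldoc and Pfkl. The log2 difference was then 2.84 for Pdk1 (limma, adjusted p = 1.6e-05), 2.37 for Tpi1 (adjusted p = 0.00014), 2.15 for Bnip3 (adjusted p = 0.001) and 1.46 for Aldoc (adjusted p = 0.026), each against control 1 alone. The Pfkl probe set that passed was the dimmer one (1.73, adjusted p = 0.006). Without control 1, 0 of 50 passed, beside 0.0884% of all, and the same genes read 0.60 for Pdk1, 0.19 for Tpi1, -0.13 for Bnip3 and 0.34 for Aldoc. Without TCDD 1 or TCDD 2, 0 of 50 passed, beside 0% of all in each case. The shares of all probe sets given here count both directions. These fits have no preparation term, and the spread of the group left with 1 array was taken from the other group.

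**Figure D4:**
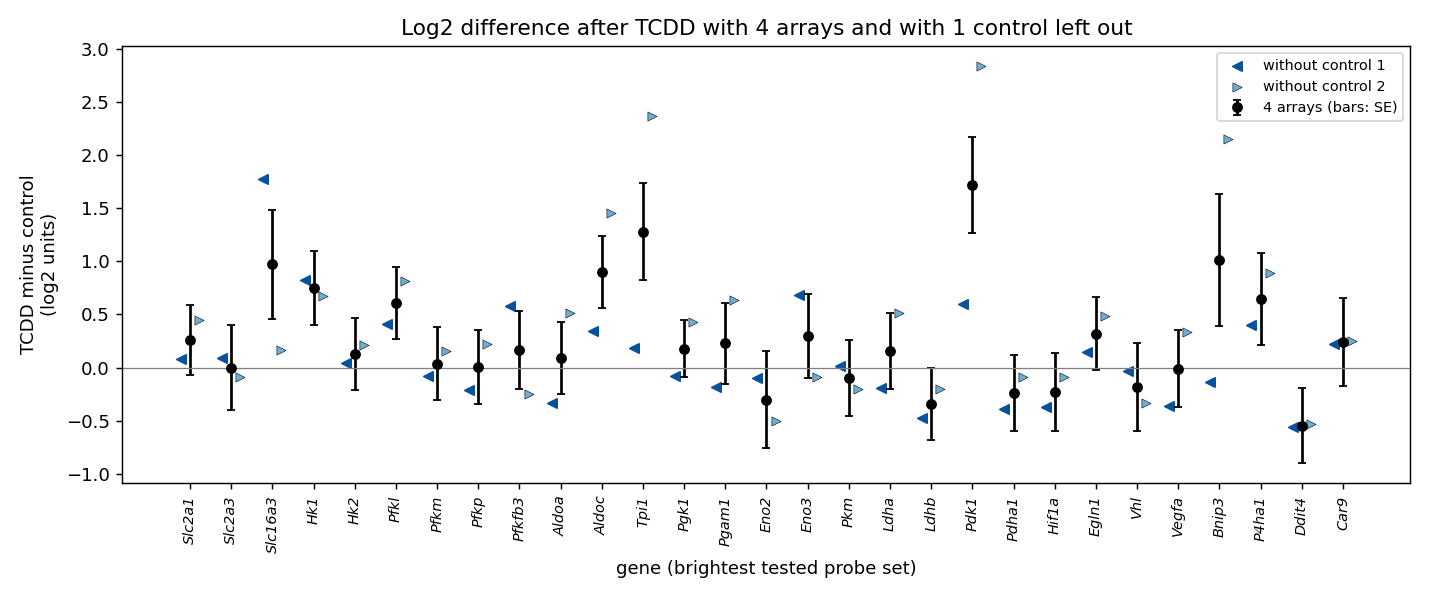
TCDD minus control log2 difference (y axis) of the 29 measured genes with all 4 arrays (black, bars SE), without control 1 (dark triangles) and without control 2 (light triangles). Tpi1, Pdk1 and Bnip3 move from 2.37, 2.84 and 2.15 without control 2 to 0.19, 0.60 and -0.13 without control 1, while Hk1 and Ddit4 hardly move.

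The promoters of the 5 genes with a probe set past the test without control 2 are shown because Hif1a with Arnt and AhR with Arnt bind related cores. The cores searched, on both strands, were ACGTG, typical of hypoxia response elements, and GCGTG, found in hypoxia elements and in the core of dioxin response elements. Sequences are the 150 bases before the start site, from RefSeq on GRCm38.p6, 5′ to 3′ on the gene's strand. Capitals mark either core or its reverse complement. Where a gene has 2 start sites (Aldoc and Pdk1), the more upstream one was taken.
Tpi1, chr6:124814159-124814308, minus strand: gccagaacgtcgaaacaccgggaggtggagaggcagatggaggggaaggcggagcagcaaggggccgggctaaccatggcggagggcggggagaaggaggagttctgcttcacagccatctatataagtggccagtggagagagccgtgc
Pdk1, chr2:71873074-71873223, plus strand: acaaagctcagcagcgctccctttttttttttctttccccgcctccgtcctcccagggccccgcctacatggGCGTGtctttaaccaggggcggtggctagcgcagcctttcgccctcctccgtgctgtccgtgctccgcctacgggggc
Bnip3, chr7:138909507-138909656, minus strand: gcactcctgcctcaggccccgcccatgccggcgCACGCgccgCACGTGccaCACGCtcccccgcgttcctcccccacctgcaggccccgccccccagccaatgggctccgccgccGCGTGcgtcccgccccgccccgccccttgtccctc
Aldoc, chr11:78322923-78323072, plus strand: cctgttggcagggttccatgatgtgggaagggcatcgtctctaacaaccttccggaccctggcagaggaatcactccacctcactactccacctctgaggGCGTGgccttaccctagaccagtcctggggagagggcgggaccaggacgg
Pfkl, chr10:78009808-78009957, minus strand: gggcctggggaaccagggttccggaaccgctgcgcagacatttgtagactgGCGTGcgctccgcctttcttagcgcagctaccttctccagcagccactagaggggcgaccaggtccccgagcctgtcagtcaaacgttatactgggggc

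Bnip3 held 5 matches in this stretch, of which the ACGTG match and its reverse complement overlap in the palindrome CACGTG. Pdk1, Aldoc and Pfkl held 1 GCGTG each, and Tpi1 held neither core. In the RefSeq window around each start site (250 bases before to 50 after), 35 of the 36 named genes had a promoter entry, 49 in all. Of these 49, 26 (53.1%) held ACGTG and 27 (55.1%) held GCGTG, against 19.6% and 32.4% of all 32851 promoters. The list was chosen to hold hypoxia genes, so these shares reflect that choice and are no result about TCDD or these samples. The promoters were not matched for base composition, and a match is a run of letters, not a bound site.

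The other labelled difference is that of back skin from the preparation with no site named. No member probe set passed the test (limma, all adjusted p = 0.9994), beside 0% of all, and at an unadjusted p under 0.05, 6 of 50 were higher in back skin, beside 2.02% of all in either direction. The 6 were the same probe sets as for TCDD, of Tpi1, Pdk1, Pfkl and Aldoc. Both comparisons use control 1 on the low side, so they share this array. Pdk1 differed by 1.34 ± 0.45, Tpi1 by 1.20 ± 0.46 and Aldoc by 0.93 ± 0.34. Slc16a3, for which control 2 was the low array, differed by -0.91 ± 0.52, and Pkm differed by -0.56 ± 0.36. The median over the 29 genes was 0.21, beside 0.005 over all genes.

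Neighbouring pathways showed no call in any list (limma, 0 members past the test, all adjusted p = 0.9999). The share of all 8413 measured genes that was higher in both preparations was 17.9%, and the share lower in both was 22.8%, and the counts of these short lists stand beside those shares as descriptions. Of 7 tested glycogen genes, 4 were higher in both preparations and 0 lower, with a median log2 difference of 0.44. Gys1, glycogen synthase, had signals of 373.9 and 414.2 in controls 1 and 2, against 535.1 and 571.6 in TCDD 1 and 2 (0.49 ± 0.33), and the groups did not overlap. Gyg, glycogenin, which primes glycogen, differed by 0.65 ± 0.38, and Pgm1, phosphoglucomutase, by 0.44 ± 0.35. Of 7 pentose phosphate genes, 3 were higher in both and 0 lower (median 0.18): Taldo1, transaldolase, had signals of 2451 and 2986 in controls 1 and 2, against 3160 and 3788 in TCDD 1 and 2 (0.35 ± 0.33), Rpe differed by 0.43 ± 0.34 and Rpia by 0.39 ± 0.35.

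Of 11 other glycolytic genes, 2 were higher in both and 4 lower (median -0.13). Slc2a8, a glucose carrier, differed by -0.93 ± 0.49 at signals of 79.6 to 242.4, Adpgk, an ADP-dependent glucokinase, by 0.56 ± 0.44 and Pfkfb2, a relative of Pfkfb3, by -0.53 ± 0.44. The list around pyruvate dehydrogenase named 12 genes, of which 8 had a probe set and 6 were tested. Of these 6, 1 was higher in both, Dld (0.43 ± 0.42), a subunit of the complex, and 0 lower. Of 8 other genes of the Hif1a pathway, 0 were higher and 0 lower in both. Arnt lay below the filter at 80.5 to 146.5. Of 18 further hypoxia targets, 5 were higher in both and 1 lower (median -0.05). The lower one was Rora, a nuclear receptor, which had signals of 1231 and 585.3 in controls 1 and 2, against 606.7 and 334.5 in TCDD 1 and 2 (-0.91 ± 0.34), and Plod1, a collagen lysyl hydroxylase, differed by 0.34 ± 0.35.

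Several genes had more than 1 tested probe set, which allows a check within the gene. Of 14 such genes, 5 had probe sets that differed in sign for TCDD: Slc2a3, Pfkfb3, Hif1a, Vegfa and P4ha1. In 7 of the 14 all probe sets were lowest on control 1 (Slc2a1, Pfkl, Aldoa, Tpi1, Pdk1, Egln1 and Vegfa), and in 2 none were (Pfkfb3 and Pdha1). The largest spread between probe sets of a gene for TCDD was that of P4ha1, from -0.12 to 0.65. Probe sets of Aldoa, Pgk1, Tpi1 and Ldhb whose names end in x_at may also bind related transcripts, so their signals are less certain.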

How the data were processed

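The authors deposited MAS5 signals, linear intensities with 1 value for each probe set on each array. Per the submitters' processing notes the tools were MAS5 and affy, and neither version is given. In the deposited table each array had a mean of 500 after 2% of probe sets were trimmed at each end. The 64 control probe sets were left out of the fit. After log2, the 13576 probe sets with a mean at or above the 40th percentile (6.85, a signal of 115.4) were tested. The model, fitted in limma 3.58.1 (R 4.3.3), held treatment and preparation, with trended eBayes variances and a 0.05 threshold on Benjamini-Hochberg adjusted p-values. This leaves 1 residual degree of freedom. Precision is limited by the number of arrays, and the median standard error was 0.364 log2 units.

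The labels give no replicate numbers, and numbers here follow accession order. Arrays of 1 preparation did not move together: across probe sets, the difference of back skin from the other preparation among controls and that among TCDD samples had a Pearson's r of -0.18. Gene names come from the platform annotation, and all 36 symbols were found in the RefSeq table (GRCm38.p6). The members and lists were chosen with earlier results of these data known. Every member is described; values on all 4 arrays, or their range, are given for those that matter, and of each other pathway list up to 3 genes are named, those with the largest log2 difference of 1 sign in both preparations. Alternatives tried were median centring and quantile normalization, no filter or a 60th percentile filter, a floor or an offset of 50, each array left out, no preparation block, variances without a trend, and the mean of a gene's probe sets.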

Additional observations from a re-analysis of the deposited data

How the results depend on the processing

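With all 4 arrays, 0 probe sets passed for TCDD or for the preparation under any normalization, filter, floor, offset or variance model tried, and the count was also 0 without the replicate block (treatment only). With 1 array left out, the number past the test for TCDD ranged from 0 to 285 over all probe sets (12 without control 1 and 285 without control 2) and from 0 to 8 over the member probe sets. The median log2 difference of the measured genes ranged from 0.01 to 0.25 with 1 array left out and from 0.16 to 0.21 under the other settings. Counts of member probe sets with both TCDD arrays above both controls, added after seeing the data, ranged from 15 to 35 with 1 array left out (35 without control 2 and 20 without TCDD 1) against 12 with all arrays, since fewer arrays make separation easier. The number lowest on control 1 was 29 after quantile normalization and 27 after median centring, against 32.

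Single genes near 0 changed sign: Slc2a3 to 0.0046 with quantile normalization and 0.00011 with the offset, Pfkp to -0.0090 with quantile normalization and -0.0017 with median centring, and, with the mean of all probe sets, Pfkfb3 to -0.010, Hif1a to 0.23 and Vegfa to 0.27. The mean for Hif1a took in its probe set below the filter, which differed by 1.09. The mean for Pfkfb3 joined probe sets that differed by 0.16 and -0.18, and that for Vegfa joined -0.01 and 0.56. For the changes of Slc2a3 and Pfkp the cause was not tested. With 1 array left out, 14 genes changed sign. Their log2 differences ranged from -0.11 to 0.11 for Slc2a3, -0.080 to 0.16 for Pfkm, -0.22 to 0.22 for Pfkp, -0.25 to 0.58 for Pfkfb3, -0.34 to 0.52 for Aldoa, -0.077 to 0.43 for Pgk1, -0.18 to 0.64 for Pgam1, -0.091 to 0.69 for Eno3, -0.54 to 0.35 for Pkm, -0.19 to 0.51 for Ldha, -0.54 to 0.083 for Hif1a, -0.60 to 0.23 for Vhl, -0.36 to 0.34 for Vegfa and -0.13 to 2.15 for Bnip3.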

Other observations

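Some highly expressed genes next to the pathway had a pattern unlike that of Tpi1 or Pdk1, and they were chosen after their values were seen. Tkt, the transketolase of the pentose phosphate pathway, read 8422 in control 1 and 7445 in TCDD 2, but 4408 in TCDD 1 and 4040 in control 2. Its log2 ratio of TCDD to control was -0.93 where no site is named, and 0.88 in back skin. Pgd, which makes NADPH in the same pathway, read 7637, 5785, 4448 and 4318 in that order of arrays, and Bhlhe40, a transcriptional repressor induced by hypoxia among other signals, read 8252, 6634, 4444 and 4695. Each pair of like arrays holds 1 control and 1 TCDD sample, so these genes have log2 differences near 0 for TCDD over the 4 arrays (-0.03 for Tkt, -0.18 for Pgd and -0.20 for Bhlhe40).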
